A study of Rattus norvegicus with 28 samples.

Results

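The 150 genes described here were lowest in libraries of rat neural progenitor cells exposed to injured spinal cord at weeks 3 and 4. They were chosen by their measured levels, from a table of 32545 genes, and are a selection made on the same libraries whose levels are given below. A level is the count of a gene scaled to 1000000 counts of its library (CPM, after the usual name for this unit). The lowest of the uninjured week 3, uninjured week 4 and culture means was divided by the higher of the injured week 3 and week 4 means, after 1 was added to each mean. Genes needed a ratio of at least 2 and a lowest mean of at least 10 after that addition. In all, 7673 genes reached the level, 209 of them also met the ratio, and the 150 with the largest ratio were taken. With the same fold and level turned the other way, 162 genes were highest in injured cord at both weeks.

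The study deposited 28 total RNA libraries labelled as neural progenitor cells of rat, in 7 groups of 4. Culture cells were kept under culture conditions with no exposure to cord. The uninjured groups were exposed to spinal cord at weeks 2, 3 and 4, with no injury named in their label, and the injured groups to spinal cord injury at the same weeks. The title concerns transplantation of such cells into the injured cord and what lies behind recovery of function. The sources used here do not give strain, age, the way of exposure, the event from which weeks are counted, the separation of cells from cord tissue or the number of animals or cultures. The p-values below therefore measure only the spread between libraries, which may be technical.

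Neural progenitor cells are dividing precursors that can give rise to neurons, astrocytes and oligodendrocytes. Grafted into the cord they can mature along these lines, and the injured cord surrounds them with inflammatory cells, reactive astrocytes and scar matrix. In bulk RNA, fewer cells of a type and less RNA per cell cannot be told apart, and RNA of surrounding tissue may be present. The deposited table lists rat Ensembl identifiers and pairs them with no symbol, and in the RefSeq gene table used here 0 of the 32545 were found. The 150 genes are therefore described by their levels, 2 of them by identifier, and their roles, promoters and cell type markers were not analysed here. Counts also grow with transcript length, so levels are compared between groups and not between genes.

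Depth ran from 84532 to 6908508 counts per library. None of the 8 week 2 libraries exceeded 446331 counts, and none of the other 20 fell under 2605188, so week 2 and low depth cannot be told apart. In injured week 3 replicate 3, 28.4% of the 7673 genes that reached the level were at 0 counts, where the other 3 libraries of its group had at most 0.0652%. It took no part in choosing the genes, and its values are given apart from the group mean.

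Together the 150 genes made up 0.201% ± 0.0134 (SD, n = 3) of all counts in injured week 3 and 0.201% ± 0.0509 (SD, n = 4) in injured week 4. The same genes held 2.22% ± 0.354 in uninjured week 3, 3.0% ± 0.522 in uninjured week 4 and 1.20% ± 0.171 in culture (SD, n = 4 each). The injured libraries of weeks 3 and 4 thus lay far below the other 3 groups, which follows from the choice of the genes. Per library, the share was 0.204%, 0.186% and 0.212% in injured week 3, and 0.263%, 0.14%, 0.21% and 0.193% in injured week 4. Uninjured week 3 libraries held 2.66%, 2.02%, 2.34% and 1.86%, and uninjured week 4 libraries 3.53%, 2.72%, 3.35% and 2.42%. Culture libraries held 1.02%, 1.19%, 1.16% and 1.43%. No library of the uninjured or culture groups overlapped those of injured weeks 3 and 4.

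The summed level was 11.1-fold lower in injured than in uninjured cord at week 3 and 14.9-fold lower at week 4. Against culture it was 5.98-fold lower in injured week 3 and 5.96-fold lower in injured week 4. Culture thus lay between the uninjured and the injured groups. The 10 most abundant of the genes held 44.3% of the sum in uninjured week 4. Without those 10, the sum was 1145 ± 67.7 CPM in injured week 3 (SD, n = 3). It was 1166 ± 296.3 CPM in injured week 4 and 7331 ± 818 CPM in culture (SD, n = 4 each). The uninjured sums were 13120 ± 1976 CPM at week 3 and 16740 ± 3137 CPM at week 4 (SD, n = 4 each). The choice of the genes keeps the injured sums lowest with or without the 10, so that part is a description. The rule required no order of culture and uninjured cord. It did use these libraries, and the part of the choice in that order was not tested. Culture stayed below both uninjured weeks, so its place there did not rest on the 10.

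At week 2, whose libraries the choice did not use, the 150 genes held 2.81% ± 0.299 of counts in injured and 2.58% ± 0.620 in uninjured libraries (SD, n = 4 each). Injured week 2 libraries held 2.66%, 2.89%, 3.19% and 2.51%, and uninjured week 2 libraries 2.47%, 1.85%, 2.63% and 3.36%. The injured week 2 libraries all lay within the range of the uninjured week 2 libraries. Their mean was 14.0-fold above injured week 3 and also 14.0-fold above injured week 4. The choice required low levels in those later injured libraries, so both folds are a description and carry no test.

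**Figure D1:**
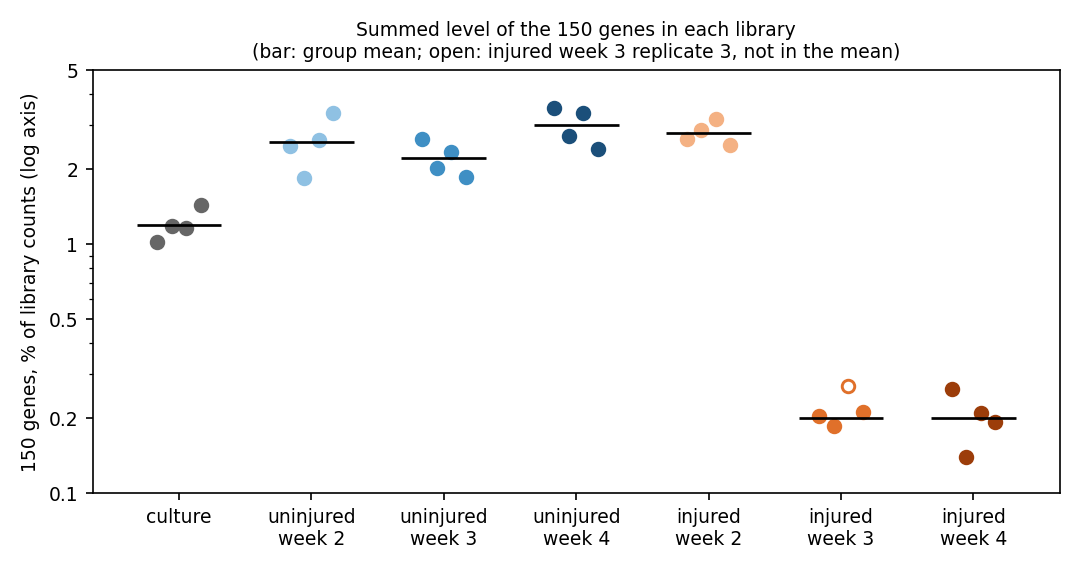
Summed level of the 150 genes as a percent of each library's counts, on a log axis, by group; points are libraries, bars are group means, and the open point is injured week 3 replicate 3, which is not in its group's mean. Injured weeks 3 and 4 lie between 0.14% and 0.269%, and injured week 2 lies between 2.51% and 3.19%, beside the uninjured groups.

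Every one of the genes had a low mean in injured cord at weeks 3 and 4, as the ratio demanded of each. The ratio ran from 2.43 to 19.05 with a median of 4.0, against a median of 0.665 over the 7673 genes that reached the level. It was at least 4 for 74 genes and at least 8 for 12. At the lower end, the last 3 genes taken had ratios of 2.46, 2.43 and 2.43, and the first 3 left out 2.41, 2.41 and 2.40, so the boundary falls inside a gradual decline. The 7 injured libraries of weeks 3 and 4 all lay below the 12 uninjured and culture libraries of the rule for 142 of the 150 genes, against 4.63% of the 7673, and nothing is read from this count, since the choice used these libraries.

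By library, the median level of the 150 genes was 4.73, 4.36 and 4.29 CPM in injured week 3 and 3.53 to 6.81 CPM in injured week 4. It was 47.8 to 74.4 CPM in uninjured week 3, 61.1 to 85.8 CPM in uninjured week 4 and 30.4 to 37.2 CPM in culture. At week 2 the medians were 66.9 to 87.5 CPM in injured and 53.6 to 87.6 CPM in uninjured libraries. Every injured week 2 median thus exceeded the highest culture median, and lay within the range of the uninjured week 2 libraries.

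**Figure D2:**
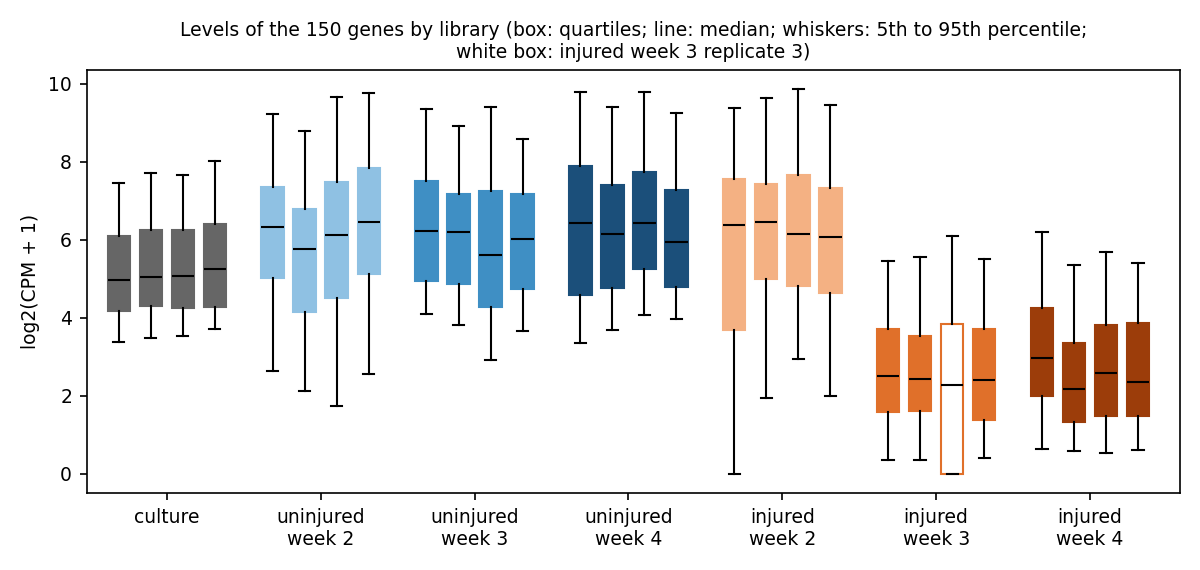
Distribution of log2(CPM + 1) over the 150 genes in each of the 28 libraries, by group; boxes give quartiles, lines medians, whiskers the 5th and 95th percentiles, and the white box is injured week 3 replicate 3. The boxes of injured weeks 3 and 4 are low (library medians of 3.53 to 6.81 CPM), while those of injured week 2 (66.9 to 87.5 CPM) sit with the uninjured groups.

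The gene with the largest ratio was ENSRNOG00000011211, at 19.05. It stood at 5.73, 1.16 and 2.86 CPM in injured week 3 and at 8.17, 2.78, 3.13 and 3.10 CPM in injured week 4. Uninjured week 3 libraries had 402.8, 272.3, 199.3 and 271.6 CPM, and uninjured week 4 libraries 419.2, 305.6, 393.1 and 201.4 CPM. In culture it was at 72.9, 110.7, 93.1 and 122.6 CPM, below every uninjured week 3 and week 4 library and above every injured one of those weeks. On the scale of means plus 1, uninjured exceeded injured cord by 67.6-fold at week 3 and 62.5-fold at week 4, and culture exceeded injured week 4 by 19.05-fold.

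At week 2 the injured libraries had 331.2, 214.6, 356.2 and 223.1 CPM of ENSRNOG00000011211, from 28 to 159 counts each. The uninjured week 2 libraries had 179.3, 110.5, 339.6 and 301.8 CPM, from 33 to 145 counts, and the groups overlapped. Injured over uninjured gave a log2 fold change of 0.13 (standard error 0.38, 95% interval -0.63 to 0.90, edgeR adjusted p = 1).

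ENSRNOG00000056457 had the next ratio, 16.2, and differed in that culture was its highest group. It stood at 545.1 ± 159.1 CPM in culture, 216.7 ± 67.1 CPM in uninjured week 3 and 289.6 ± 36.7 CPM in uninjured week 4 (SD, n = 4 each). Injured libraries had 19.5, 7.27 and 10.5 CPM at week 3 and 7.90, 5.55, 6.71 and 7.75 CPM at week 4. Culture exceeded injured week 4 by 68.4-fold, and uninjured exceeded injured cord by 16.2-fold at week 3 and 36.4-fold at week 4.

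At week 2 ENSRNOG00000056457 had 532.3, 333.2, 318.1 and 220.1 CPM in injured and 189.8, 56.9, 213.1 and 311.5 CPM in uninjured libraries. Of the injured libraries, 3 exceeded every uninjured one and the lowest lay inside their range. Injured over uninjured gave a log2 fold change of 0.74 (standard error 0.40, 95% interval -0.07 to 1.55, edgeR adjusted p = 1). The gene had 0 counts in injured week 3 replicate 3, as did many genes in that library, where ENSRNOG00000011211 had 13 counts, or 3.597 CPM.

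**Figure D3:**
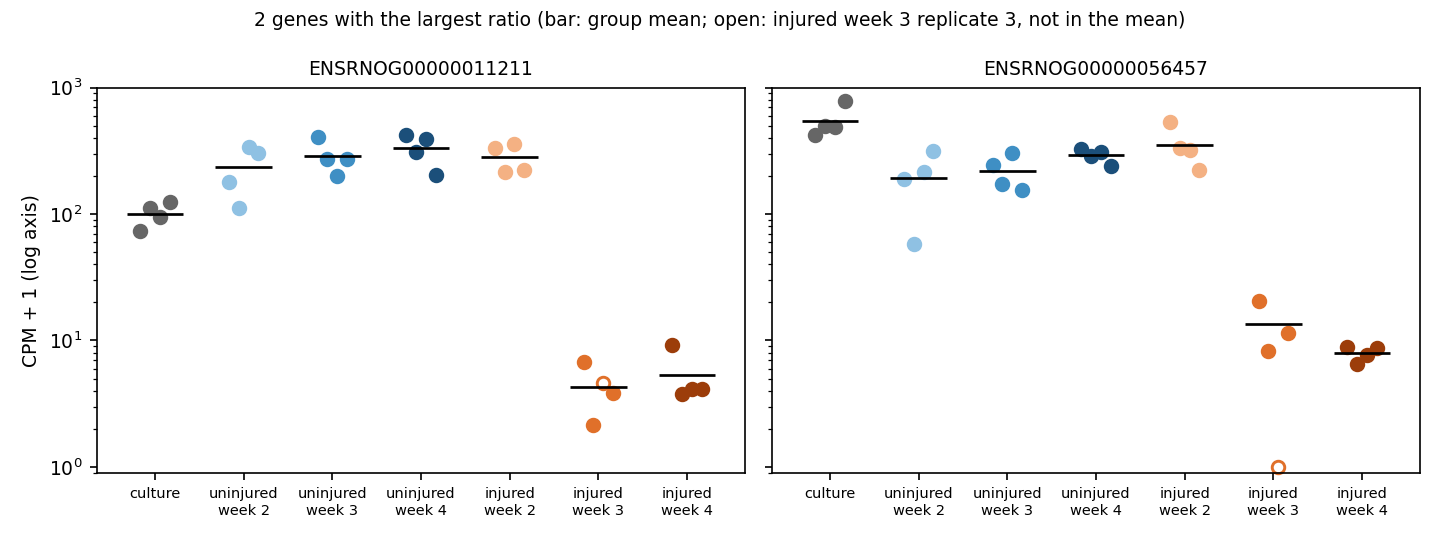
CPM + 1 on a log axis of the 2 genes with the largest ratio, ENSRNOG00000011211 and ENSRNOG00000056457, in each library by group; bars are group means and the open point is injured week 3 replicate 3, not in the mean. Both are low in injured weeks 3 and 4 only, with 281.3 and 351.0 CPM on average in injured week 2, while culture is below the uninjured week 3 and week 4 groups for the first and above them for the other.

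The genes also differed in how their culture level stood to that of uninjured cord. The lowest of the 3 high groups was uninjured week 3 for 30 genes, uninjured week 4 for 14 and culture for all the rest. For 61 genes culture was at least 2-fold below both uninjured weeks, for 2 genes at least 2-fold above both, and for 87 neither. These counts were not taken over the 7673 genes. On the scale of means plus 1, the median ratio of uninjured week 3 to culture was 1.66, against 0.990 over the 7673. For uninjured week 4 it was 1.83, against 0.942. The 61 genes had a median of 32.6 CPM in culture, 128.4 CPM in uninjured week 3 and 173.8 CPM in uninjured week 4, but 2.96 CPM in injured week 3 and 6.19 CPM in injured week 4. Their order, uninjured cord, then culture, then injured cord of both weeks, was set by the choice of the genes and of the class. The other 87 genes had medians of 32.6 CPM in culture, 36.5 CPM in uninjured week 3 and 40.8 CPM in uninjured week 4. Their medians were 6.29 CPM in injured week 3 and 4.57 CPM in injured week 4.

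At week 2, the 61 genes had medians of 152.7 CPM under injured and 145.1 CPM under uninjured exposure, near their uninjured level of weeks 3 and 4 and above their culture level. For the 87 genes these medians were 49.1 and 40.0 CPM. The class was set on weeks 3 and 4 and culture, so only the week 2 side of these comparisons is separate from it. The class required a low culture level of the 61 genes, so its place below week 2 is a description. Injured week 2 means were within 2-fold of the range of uninjured weeks 3 and 4 for 86.8% of the 7673 genes as well.

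**Figure D4:**
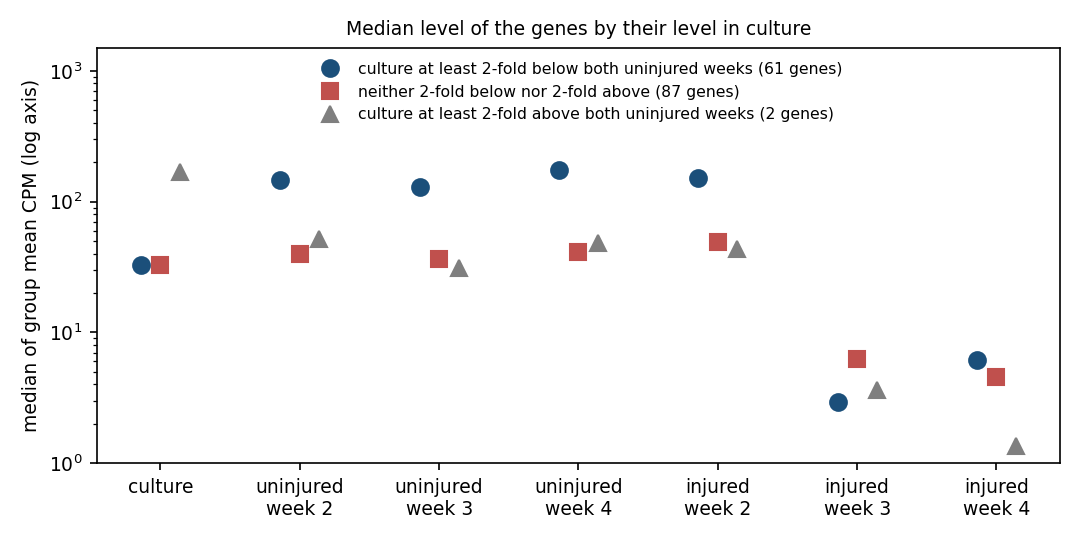
Median over genes of the group mean CPM, on a log axis, for the 61 genes at least 2-fold lower in culture than in both uninjured weeks, the 2 genes at least 2-fold higher in culture, and the other 87. In injured week 2 the 61 genes have a median of 152.7 CPM and the 87 genes 49.1 CPM, near their uninjured levels, against 2.96 and 6.29 CPM in injured week 3.

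Across the 150 genes neither injured week was the lower throughout. Injured week 3 was the higher injured group for 72 genes and injured week 4 for 78, with a median ratio of week 4 to week 3 of 1.01. Over the 7673 genes this median was 0.789. Injured week 4 was at least 2-fold above injured week 3 for 23 genes and at least 2-fold below it for 20, and the rest were within 2-fold. The uninjured weeks were within 2-fold of one another for 140 of the 150 genes. Their median ratio of week 4 to week 3 was 1.24, against 0.951 over the 7673. The counts of genes given here were not taken over the 7673. Over genes, group means of uninjured weeks 3 and 4 had a Spearman rho of 0.950 and those of injured weeks 3 and 4 a rho of 0.714 (n = 150 genes, no test). Over all 7673 genes these values were 0.956 and 0.849. The injured libraries hold few counts of these genes, and the part of this in the lower value was not tested.

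Replicates of weeks 3 and 4 and of culture differed more for the 150 genes than for all genes of the level. Their median coefficient of variation (SD over mean) was 32.7% in injured week 3, 40.2% in injured week 4, 27.8% in uninjured week 3, 25.7% in uninjured week 4 and 16.3% in culture. Over the 7673 genes it was 15.2%, 19.7%, 18.1%, 16.5% and 8.45% in the same order. At week 2 the order was the other way. There the 150 genes had 56.7% in injured and 54.0% in uninjured libraries, against 73.5% and 60.6% over the 7673. Median means in injured weeks 3 and 4 were 4.21 and 4.84 CPM, against 46.8 and 39.4 CPM over the 7673. In culture they were 32.7 against 43.5 CPM. In uninjured weeks 3 and 4 the 150 genes lay higher, at 66.0 and 74.7 CPM against 45.6 and 43.5 CPM. At week 2 they also lay higher, at 81.8 against 41.9 CPM in injured and 74.2 against 39.9 CPM in uninjured libraries. The part of gene level in these spreads was not tested.

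Injured week 3 replicate 3 was outside the choice but missing many genes. In it the 150 genes held 0.269% of counts, below all uninjured and culture libraries. The other injured libraries of week 3 held less, at 0.186% to 0.212%. Replicate 3 lay below all 12 uninjured and culture libraries of the rule for 141 of the 150 genes, against 31.5% of the 7673 genes. Those 12 libraries were used in the choice and must be high for these genes, so this count is a description. It had 0 counts for 42 of the 150, a share of 28%, which is near the 28.4% over the 7673 genes, where the other 3 libraries of its group had 0 counts for 2 to 5 of the 150.

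Week 2 gave the only comparison of injured with uninjured cord that the choice of the genes did not use, and none of the genes passed its test. With the 8 week 2 libraries fitted alone, 4992 genes had counts enough to be tested, among them all but 39 of the 150. Of the members tested, 0 were called lower and 0 higher in injured libraries at an adjusted p under 0.05 (edgeR, quasi-likelihood F), against 0% of the 4992 called either way. At an unadjusted p under 0.05 there were 2 of the genes, 1 higher and 1 lower, against 2.70% of all genes tested, and DESeq2 and limma voom each called 0 of them. Not one of them had all injured week 2 libraries below all uninjured ones, against 0.881% of genes tested, and not one had them all above, against 1.82%.

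The log2 fold changes of the genes tested at week 2 centred near 0. Their median was -0.05 with quartiles of -0.25 and 0.26, against -0.02 with quartiles of -0.39 and 0.34 over all genes tested. Of the members, 60 were below 0 and 51 above, and the lowest and highest values were -1.53 and 1.497. Estimates at least 2-fold lower in injured libraries were found for 5 genes (4.50%, against 5.89% of all genes tested) and at least 2-fold higher for 4 (3.604%, against 4.63%). Both shares were near those of all genes tested. The other 39 genes had too few counts over the 8 libraries, as few as 4 in all, and were not tested. Of these, 18 had a lower and 21 a higher mean in injured week 2 libraries.

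A missed threshold does not show that levels were equal. The 95% interval lay above a 2-fold fall for 54 of the members tested (48.6%), against 34.3% of all genes tested. The part of gene level in the 48.6% was not tested. At injured week 2 the median mean was 81.8 CPM over the 150 genes and 41.9 CPM over the 7673. The interval lay within 2-fold either way for 27 members, a count not taken over all genes tested, and nothing is read from it. For the members tested outside those 54, a 2-fold fall at week 2 lay inside the interval. The median width of an interval to either side was 1.06 log2 units.

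**Figure D5:**
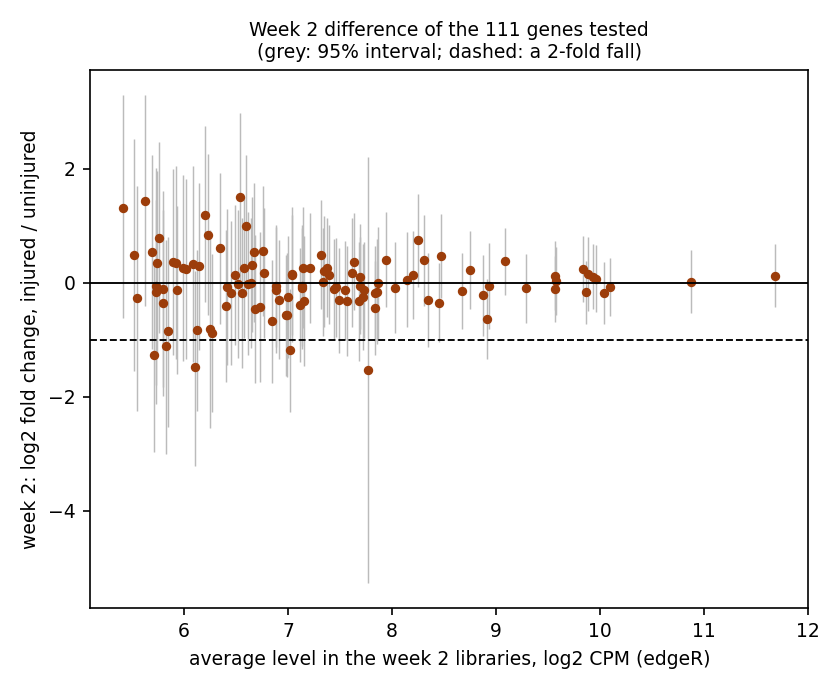
Log2 fold change of injured over uninjured cord at week 2 with its 95% interval (y axis) for each member tested, against its average log2 CPM in the week 2 libraries (x axis). The points lie about 0 (median -0.05), and 54 of the intervals are wholly above the dashed line of a 2-fold fall.

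The week 2 means were also set beside those of the later weeks. Injured week 2 was at least 2-fold above the higher of injured weeks 3 and 4 for 145 of the 150, against 9.58% of the 7673 genes. The choice required low levels in those later injured libraries, so this count carries no test. The injured week 2 mean was within 2-fold of the range of uninjured weeks 3 and 4 for 142 of the 150 genes (94.7%), against 86.8% of the 7673. The uninjured week 2 mean was within it for 145 (96.7%), against 89.8%. Most genes of the level thus had week 2 means near the uninjured range, the 150 genes among them. In 1 gene the injured week 2 libraries all had 0 counts, which allows up to 2.46 CPM over the 4 libraries by counting error alone. Its uninjured week 2 mean was 3.83 CPM, a level of few counts at this depth.

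Relative levels among the genes were compared between groups as well. Over the 150 genes, injured week 2 means had a Spearman rho of 0.931 with uninjured week 3 and 0.925 with uninjured week 4. With injured week 3 it was 0.415, with injured week 4 0.569 and with culture 0.668 (n = 150 genes, no test). Uninjured week 2 means gave 0.952, 0.946, 0.415, 0.605 and 0.688 for the same groups. Over all 7673 genes injured week 2 gave 0.832, 0.865, 0.599, 0.713 and 0.645. The choice set the means of injured weeks 3 and 4 low, at medians of 4.21 and 4.84 CPM over the 150 genes. The lower values with those 2 groups are therefore a description, and the part of the choice in them was not tested. Transcript length and base composition of a gene are the same in every group and enter all of these values.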

How the data were processed

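The authors deposited raw counts per gene for 28 libraries in 1 table, without normalization. The submitters' processing notes name STAR 2.5.1 and featureCounts 1.5.1 among their tools, without roles, and the mouse build GRCm38, although the identifiers are rat. The sources used here state no annotation, strand setting or handling of shared or duplicate reads. Genes with near copies or overlapping neighbours are therefore uncertain. Per the labels' protocols, a stranded total RNA kit for very small inputs was used.

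CPM was computed on column totals, and the rule was applied to group means plus 1 without injured week 3 replicate 3. The members, lists and tests were chosen with earlier results of these data known. Levels the rule used carry no test. The week 2 test used edgeR 4.0.16 (R 4.3.3, robust quasi-likelihood F test, TMM factors, filterByExpr, Benjamini-Hochberg over 4992 genes) on the 8 week 2 libraries alone. Their biological coefficient of variation was 54.0%, against 20.2% in 19 others, so a shared spread would be too small for them. Standard errors were taken as the unshrunk log2 fold change over the square root of F. The test was checked on simulated data.

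DESeq2 1.42.0, limma 3.58.1 (voom), other factors, filters and sets of libraries were the alternatives. Genes were to be named by symbol. With 0 of 32545 identifiers matched, the 2 with the largest ratio are printed, and the 32 gene and marker lists and 8 promoter motifs were not run.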

Additional observations from a re-analysis of the deposited data

Results flagged for a closer look

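For ENSRNOG00000011211, injured week 4 replicate 1 stood at 8.17 CPM, from 30 counts, where replicates 2 to 4 had 2.78 to 3.13 CPM. Its distance from them passed the 95% limit of Dixon's ratio. This was 1 of 21 groups of 4 libraries examined in this way, and chance flags about 1 in 20. The library also had the highest summed level of the 150 genes in its group, at 0.263% of counts. All 4 values were far below the lowest culture library, at 72.9 CPM.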

How the results depend on the processing

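No member was called at week 2, lower or higher, under any of the 15 alternatives. Over all genes, where the fit of the 8 libraries with edgeR called 0 (135 at an unadjusted p under 0.05), DESeq2 called 4, the fit without a count filter 6, that with a minimum of 20 counts over the 8 libraries 7, the fit of 27 libraries 481 and that of all 28 libraries 300. Leaving out each week 2 library gave 0 to 1 calls; 1 call each came without uninjured week 2 replicate 1 and without uninjured week 2 replicate 3. The cause was not tested. The members' median log2 fold change ran from -0.09 to 0.16, a move smaller than the SD between libraries of 0.33. ENSRNOG00000011211 changed sign, uncalled, to -0.017 without injured week 2 replicate 3 and to -0.059 without uninjured week 2 replicate 2, and reached 0.42 without uninjured week 2 replicate 3. Of the 150 members, 129 to 142 were taken under 7 other readings of the rule, the lowest with totals that leave out the 20 most abundant genes. That reading, and the one with the level set before 1 is added (142), were chosen after seeing the data; the planned total without mitochondrial genes was not run, since no symbols were matched. Leaving out each of the 19 libraries kept 142 to 149. Low week 2 depth limits every week 2 value. The labels give no replicate numbers, so replicates were numbered here in sample order and no paired analysis was possible.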
